A study of Mus musculus with 6 samples.

Results

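Metallothionein and zinc handling genes were examined in mouse embryonic fibroblasts (MEFs) that had passed through narrow pores. The genes were the metallothioneins Mt1, Mt2 and Mt3, the metal-sensing transcription factor gene Mtf1, and the zinc transporter genes Slc30a1, Slc39a14 and Slc39a10. They were found in the count table by their Ensembl identifiers and are 7 of the 55335 genes in it. Ctrl was the parental MEF line of wild-type genotype. Confine was the same line after seeding on the upper side of a transwell membrane with 3 μm pores, with only the cells that had crossed collected after 15 h. Both groups were grown in Dulbecco's modified Eagle medium with fetal bovine serum and antibiotics, and no agent or allele distinguished them. Confine cells differed from Ctrl in pore passage, in culture on a membrane and in being the part of the population that crossed, and these cannot be told apart. The study's transwell method, written for another pore size, puts cells in medium without serum above complete medium, and whether serum was also withheld from the upper side here is not given in the sources used here. Nothing in the labels says that replicates came from separate cultures, so p-values measure only the spread between these samples.

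Metallothioneins are small cysteine-rich proteins that bind zinc and copper in the cytosol. Free zinc activates the transcription factor MTF1, which binds metal response elements and induces metallothionein genes and the zinc exporter gene Slc30a1, so that excess metal is buffered or removed. Transporters of the Slc30 family mostly move zinc out of the cytosol and those of the Slc39 family mostly move it in, and the genes are listed here as exporters and importers by family. Metallothionein genes also respond to glucocorticoids, to cytokines that act through STAT3 and to low oxygen.

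Libraries were made from polyadenylated RNA and held between 22287210 and 32537550 counts. Confine replicates 1 and 2 had the same count in each of the 55335 genes. They entered as a single library, called Confine replicate 2 here, which left 3 Ctrl and 2 Confine libraries. Fibroblast markers were plentiful in all 5 libraries, with summed levels of 8728 to 9586 CPM (counts relative to the library total, scaled by the TMM method for library composition) in Ctrl and 15716 to 16495 CPM in Confine, although Thy1 had at most 2 counts in a library. Of 8 fibroblast markers 7 were tested and 5 rose, a share of 71.4%. The share of all tested genes that passed was 23%, which also stands beside the other marker calls in this paragraph. The leukocyte markers, 3 of 8 tested, summed to between 7.61 and 8.50 CPM in Ctrl and between 18.5 and 25.9 CPM in Confine, with Cd68 and Csf1r higher and Lyz2 lower, while Ptprc had at most 2 counts and Adgre1 and Cd3e had 0. Csf1r lost significance without any 1 of 4 libraries (adjusted p = 0.0517 without Ctrl replicate 2, 0.114 without Ctrl replicate 3, 0.0667 without Confine replicate 2 and 0.314 without Confine replicate 3), with library size alone (0.0662) and in DESeq2 (0.0567). Col1a1 lost it without Ctrl replicate 3 (adjusted p = 0.08) and with library size alone (0.0629). Epithelial markers summed to between 0.340 and 0.416 CPM in Ctrl and between 3.89 and 8.77 CPM in Confine, where only Krt19 of 6 markers was tested and it rose by 4.84 on the log2 scale, and Epcam, Krt18 and Cldn4 were at 0. Endothelial markers stayed at or below 0.718 CPM in sum, and glial and neuronal markers summed to between 15.2 and 20.7 CPM in Ctrl and to 11.8 CPM in both Confine libraries, with no tested member past the test. The part of these marker levels in the results was not tested.

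Of the 7 genes, 6 had enough counts to be tested, and 3 rose in Confine, none fell and 3 did not pass the test. "Rose" and "fell" stand for an adjusted p under 0.05 in the edgeR quasi-likelihood test, with p-values adjusted by the Benjamini-Hochberg method over all 15881 tested genes. Of all tested genes, 23% passed, 12.8% with higher and 10.2% with lower levels in Confine. The genes that rose were Mt1, Mt2 and Slc39a14, each also above a log2 fold change of 1.5, a size that 8% of all tested genes reached together with the adjusted p, 4.89% upward and 3.11% downward. The libraries of the groups did not overlap for these 3 genes, as for 49.5% of all tested genes, with Confine above in 25.9%. The median log2 fold change was 0.81 over the 6 genes and -0.0021 over all tested genes. In bulk RNA, a changed share of cells that express a gene and changed RNA of it per cell cannot be told apart.

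**Figure D1:**
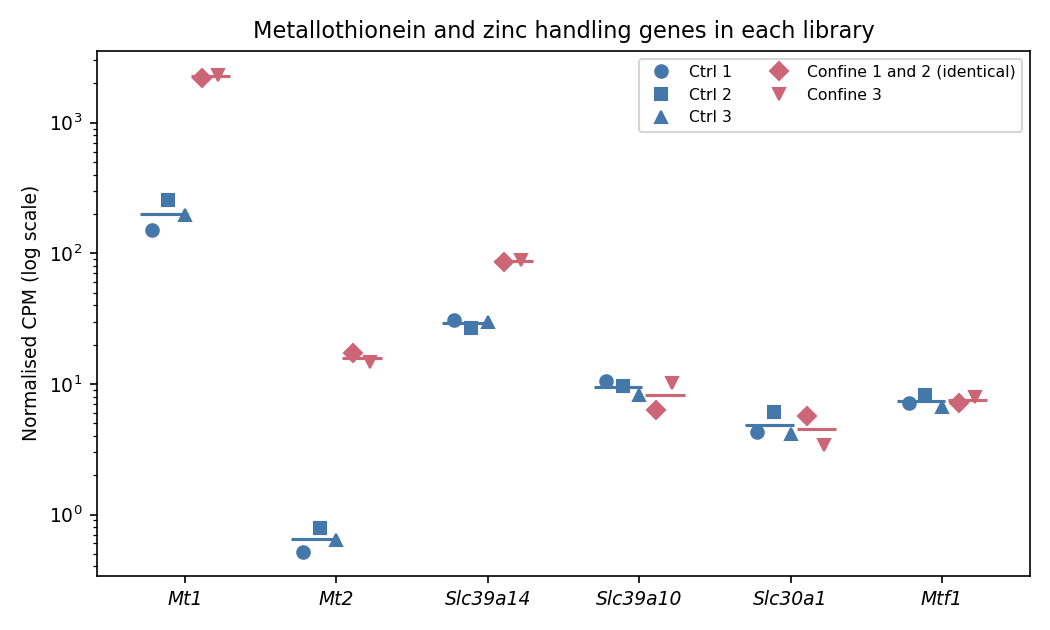
Normalised CPM of the 6 tested genes in each library on a log axis, with Ctrl in blue, Confine in red, and a line at each group mean. Mt1, Mt2 and Slc39a14 are separated between the groups, with all Ctrl libraries at or below 256 CPM for Mt1 and both Confine libraries at or above 2197 CPM, while Slc39a10, Slc30a1 and Mtf1 overlap.

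The promoters of Mt1 and Mt2, which rose, are shown beside that of Slc30a1, a textbook MTF1 target whose level did not pass the test. Each is 250 bases before to 50 bases after the RefSeq start (GRCm38.p6, plus strand), and capitals mark matches on either strand to the metal response element core, searched as TGCACNC or TGCGCNC.
Mt1 promoter, chr8:94178839-94179138: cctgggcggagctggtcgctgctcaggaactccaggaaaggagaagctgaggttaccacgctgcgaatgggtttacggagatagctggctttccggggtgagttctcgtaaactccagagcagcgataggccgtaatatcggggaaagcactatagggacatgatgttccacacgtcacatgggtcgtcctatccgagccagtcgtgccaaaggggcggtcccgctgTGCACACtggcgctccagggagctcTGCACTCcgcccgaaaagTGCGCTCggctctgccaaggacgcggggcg
Mt2 promoter, chr8:94172368-94172667: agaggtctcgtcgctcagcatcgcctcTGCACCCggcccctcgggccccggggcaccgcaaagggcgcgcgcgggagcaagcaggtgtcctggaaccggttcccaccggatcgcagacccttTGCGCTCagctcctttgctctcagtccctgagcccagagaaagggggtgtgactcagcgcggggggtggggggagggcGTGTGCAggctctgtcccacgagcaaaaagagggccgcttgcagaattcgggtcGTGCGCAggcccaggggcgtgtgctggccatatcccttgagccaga
Slc30a1 promoter, chr1:191906531-191906830: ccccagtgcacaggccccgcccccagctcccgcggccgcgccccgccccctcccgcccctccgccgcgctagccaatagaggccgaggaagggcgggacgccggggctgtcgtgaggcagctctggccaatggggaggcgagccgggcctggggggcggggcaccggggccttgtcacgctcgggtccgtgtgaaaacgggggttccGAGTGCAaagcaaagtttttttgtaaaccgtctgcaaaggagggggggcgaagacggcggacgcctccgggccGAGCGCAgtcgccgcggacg
The Mt1 window held 3 matches, beginning at positions -23, 3 and 21, where position 1 is the first base after the 250 upstream bases. The Mt2 window held 4, beginning at -223, -128, -50 and 5, and the Slc30a1 window held 2, at -43 and 31. At least 3 matches were found in 1.97% of the 32851 RefSeq promoter windows, at least 4 in 0.517%, at least 2 in 7.11% and at least 1 in 25.7%. Mt3 and Mt4 had 1 match each, and the windows of Mtf1 and Slc39a10 held none. RefSeq windows were found for 7 of the 8 genes when Mt4 is included, and Slc39a14 was not among them.

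The core of the hypoxia response element, searched on both strands as ACGTG or GCGTG, was found 2 times in the Mt1 window and 2 times in the Mt2 window, where 1 match overlapped a metal response element match. The Slc30a1 window held 1 match and the other windows none. At least 1 match was present in 43.8% of all windows, at least 2 in 20.6% and at least 1 of each core in 16%. A match is a description of the letters only. For Mt1, GENCODE lists 3 transcripts with starts up to 159 bases apart, and for Mt2 it lists 2 with starts 196 bases apart. The Mt1 window ends at 94179138, before the GENCODE starts at 94179211 and 94179241. The Mt2 window ends at 94172667, before the GENCODE start at 94172860. Bases between the window ends and those starts were not searched, so the matches hold for the RefSeq windows only. The read counts do not tell which start was used for either gene. The RefSeq start of Mt2 lies upstream of its GENCODE start, since the window ends at 94172667 and the GENCODE start is 94172664.

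Although the counts of Mt2 carry a limit given below, Mt1 had the most counts of these genes in both groups. It lies on the plus strand of chr8:94179082-94180327 (ENSMUSG00000031765.8, GRCm38), and no other annotated gene overlaps its exons. Ctrl libraries had 4386, 6765 and 4611 counts and Confine libraries 65025 and 58672, or 152, 256 and 196 CPM against 2197 and 2330 CPM. Both Confine libraries were far above all Ctrl libraries, and the Ctrl libraries differed among themselves more than the Confine libraries did relative to their level.

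The mean of Mt1 was 201 ± 52.3 CPM (SD, n = 3) in Ctrl and 2263 ± 93.8 CPM (SD, n = 2) in Confine. This gave a log2 fold change of 3.49 (SE 0.21, 95% interval 3.04 to 3.94, edgeR adjusted p = 1.35e-09), an 11.3-fold rise. Of the 15881 tested genes, 0.806% had a larger log2 fold change. Mt1 took between 0.0157% and 0.0277% of all counts in Ctrl and between 0.200% and 0.215% in Confine. By counts it stood between rank 625 and rank 1217 of all genes in Ctrl, and at ranks 59 and 54 in Confine.

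Mt2, the close companion of Mt1 that encodes a metallothionein of similar role, also rose. It starts at -6.42 kb from the start of Mt1 on the same strand, at chr8:94172664-94173568 (ENSMUSG00000031762.7). Ctrl libraries had 15, 21 and 15 counts and Confine libraries 506 and 368, or 0.518, 0.794 and 0.638 CPM against 17.1 and 14.6 CPM. All Ctrl libraries were below 1 CPM, and both Confine libraries were well above them. The mean was 0.650 ± 0.138 CPM (SD, n = 3) in Ctrl and 15.9 ± 1.76 CPM (SD, n = 2) in Confine, with a log2 fold change of 4.60 (SE 0.28, 95% interval 4.02 to 5.20, edgeR adjusted p = 1.34e-09), a 24.3-fold rise.

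The level of Mt2 carries a limit that the level of Mt1 does not. Of the 588 exonic bases of Mt2, 432 (73.5%) are also covered by Gm45774, an annotated antisense gene on the minus strand, which leaves 156 bases of its own. In this count table, genes with 1 exon of at least 300 bases that lies inside an exon of an opposite-strand gene with more than 5000 counts were at 0 counts in 24 of 24 cases. Of 214 such genes inside introns of opposite-strand genes with no exon overlap, 25 (11.7%) were at 0. Reads on bases shared with an opposite-strand gene were thus not credited to the inner genes in these cases, and the level of Mt2 cannot be set beside that of Mt1. The part of this overlap in the gap between the 2 levels was not tested.

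Gm45774 itself had 2, 4 and 2 counts in Ctrl and 16 and 11 in Confine (log2 fold change 2.22, SE 0.75, edgeR adjusted p = 0.0359). Its call was lost without Ctrl replicate 1 (adjusted p = 0.112), Ctrl replicate 3 (0.0753), Confine replicate 2 (0.239) or Confine replicate 3 (0.154), with library size alone (0.0515), with no filter on low counts (0.0735) and in DESeq2 (0.110). The strand setting of counting is not given, so whether the reads counted for Gm45774 came from the minus strand is not known. The counts of Mt1 were 292, 322 and 307 times those of Mt2 in Ctrl and 129 and 159 times in Confine. The log2 ratio was 8.26 ± 0.070 (SD, n = 3) in Ctrl and 7.16 ± 0.22 (SD, n = 2) in Confine, a difference of -1.10 (two-sided exact permutation test, p = 0.1, which is the smallest that this design can give). Both Confine ratios lay below the Ctrl ratios.

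Mt3 and Mt4, whose products are known from brain and from stratified epithelium, had few counts in these fibroblasts and did not reach the filter for testing. Mt3 (chr8:94152607-94154146) had 2, 3 and 5 counts in Ctrl and 0 and 10 in Confine, so that the groups overlapped. Mt4 (chr8:94137197-94139031), added to complete the family, had 0 counts in all 3 Ctrl libraries and 10 and 25 in Confine. Both Confine libraries were above the Ctrl libraries. The mean Confine level of Mt4 was 0.665 CPM, at least 5.79-fold higher than the level that 3 counts in each Ctrl library would give (0.115 CPM). From Confine replicate 2 alone the bound was 2.94-fold and from Confine replicate 3 alone 8.64-fold. With no filter on low counts, the edgeR adjusted p was 3.97e-06 for Mt4 and 0.798 for Mt3. For Mt1 that fit gave 7.04e-70, against 1.35e-09 with the filter, so its p-values cannot be set beside those of the main fit.

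The 4 metallothionein genes form a cluster of 43.1 kb on chromosome 8, between Bbs2 and Nup93. Bbs2, a ciliary gene and the nearest protein-coding gene with counts on one side, had 159, 137 and 202 counts in Ctrl and 248 and 273 in Confine (log2 fold change 0.58, SE 0.26, edgeR adjusted p = 0.117), and it passed the test upward without Ctrl replicate 3 (0.83, adjusted p = 0.0263). Nup93, a nuclear pore gene on the other side, had 2637, 1600 and 1859 counts in Ctrl and 1257 and 990 in Confine and fell, with a log2 fold change of -0.91 (SE 0.20, edgeR adjusted p = 0.00283). This call was lost without Confine replicate 3 (adjusted p = 0.0671).

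**Figure D2:**
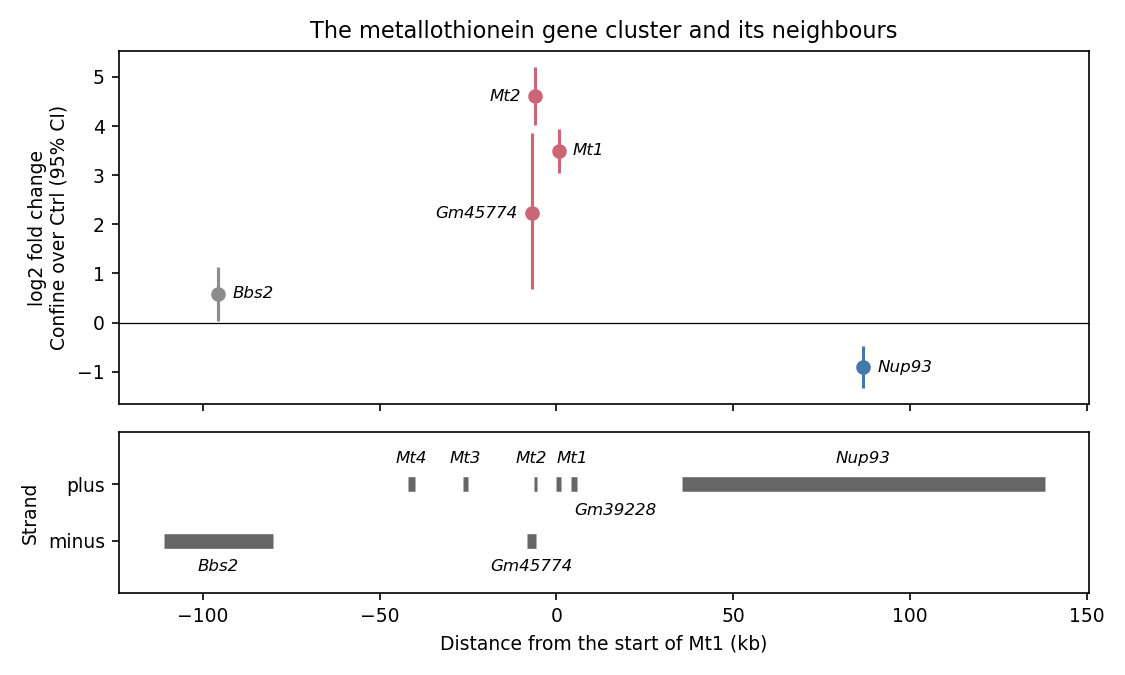
Log2 fold change with its 95% interval for the tested genes of the metallothionein region (upper panel, red higher and blue lower in Confine at an adjusted p under 0.05, grey not past the test) and the genes drawn by strand and distance from the start of Mt1 in kb (lower panel). Mt1 at 3.49 and Mt2 at 4.60 stand above Bbs2 at 0.58 and Nup93 at -0.91. Gm45774 at 2.22 was also higher in Confine, with a wide interval from 0.69 to 3.85. That call was lost with library size alone, with no filter on low counts and in DESeq2. Mt3, Mt4 and Gm39228 had too few counts to be tested.

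Mtf1, the gene of the zinc-sensing activator of metallothionein transcription, lies at chr4:124802104-124849800. Ctrl libraries had 206, 219 and 157 counts and Confine libraries 211 and 201. The groups overlapped, with means of 7.36 ± 0.827 CPM (SD, n = 3) and 7.55 ± 0.602 CPM (SD, n = 2). The log2 fold change was 0.037 (SE 0.23, edgeR adjusted p = 0.932), with a 95% interval from -0.45 to 0.52. Of its exonic bases, 8.09% are shared with the opposite-strand gene 1110065P20Rik.

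Slc30a1, which encodes the zinc exporter of the plasma membrane, lies at chr1:191906767-191913247 and did not pass the test. Ctrl libraries had 123, 160 and 97 counts and Confine libraries 167 and 86. The Confine libraries lay on either side of the Ctrl mean, at 5.64 and 3.41 CPM against 4.81 ± 1.08 CPM (SD, n = 3). The log2 fold change was -0.082 (SE 0.29, 95% interval -0.70 to 0.54, edgeR adjusted p = 0.877). The interval of Slc30a1 and those of Mt1 and Mt2 do not overlap. Its direction turned without Confine replicate 3, to 0.23, and without Ctrl replicate 2, to 0.11.

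Slc39a14, which encodes an importer of zinc and iron, rose and was past the fold cutoff. It lies on the minus strand of chr14:70303469-70351425. Ctrl libraries had 895, 713 and 702 counts and Confine libraries 2550 and 2235, or 30.9, 26.9 and 29.9 CPM against 86.2 and 88.7 CPM. The libraries were tight within each group and far apart between groups. The mean was 29.2 ± 2.06 CPM (SD, n = 3) in Ctrl and 87.4 ± 1.83 CPM (SD, n = 2) in Confine, with a log2 fold change of 1.58 (SE 0.18, 95% interval 1.21 to 1.95, edgeR adjusted p = 2.75e-06), a 2.99-fold rise. Scaled by library size without TMM, the log2 fold change was 1.37, below the fold cutoff, and all tested genes then shifted by -0.21 at the median.

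Slc39a10, which encodes a plasma membrane zinc importer, lies on the minus strand of chr1:46807544-46892852. Ctrl libraries had 306, 254 and 194 counts and Confine libraries 187 and 255. The groups overlapped, with means of 9.47 ± 1.17 CPM (SD, n = 3) and 8.22 ± 2.69 CPM (SD, n = 2). The log2 fold change was -0.21 (SE 0.25, 95% interval -0.73 to 0.31, edgeR adjusted p = 0.601), and it was 0.097 without Confine replicate 2.

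Per kilobase of exon, the order of levels in Ctrl was Mt1 at 161 ± 41.9 CPM per kb, Slc39a14 at 2.77 ± 0.195, Slc39a10 at 1.55 ± 0.191, Slc30a1 at 0.917 ± 0.205, Mtf1 at 0.826 ± 0.0928 and Mt3 at 0.124 ± 0.069 (SD, n = 3). Slc30a1 and Mtf1 overlapped over the libraries, and Mt4 was at 0. In Confine, Mt1 was at 1816 ± 75.3 CPM per kb and Slc39a14 at 8.29 ± 0.174 (SD, n = 2), neither of them overlapping with the next. Mt4 at 1.67 ± 1.16, Slc39a10 at 1.35 ± 0.442, Slc30a1 at 0.864 ± 0.3 and Mtf1 at 0.848 ± 0.0676 CPM per kb overlapped each with the next, and Mt3 was the lowest at 0.186 ± 0.263. Mt2 is left out of this order because of the bases it shares with Gm45774. Its Ctrl level was 1.11 ± 0.235 CPM per kb over all 588 exonic bases and 4.17 ± 0.885 over the 156 bases of its own (SD, n = 3), below Slc39a10 by the first and above Slc39a14 by the second. In Confine it was 27.0 ± 2.99 and 102 ± 11.3 CPM per kb (SD, n = 2), above Slc39a14 by either. Its place against Mt1 is not given, for the reason above. Whether reads that span own and shared bases were counted is not known, so the second level may also be too low. The second length was chosen after seeing the data.

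In the Slc30 and Slc39 families as a whole, most members did not pass the test. Of 24 listed zinc transporter genes, 20 had counts and 19 were tested, of which 4 rose, 1 fell and 14 did not pass. The share that passed was 26.3%, near the 23% of all tested genes, and the median log2 fold change was -0.057. Of the 12 tested importers 3 rose, and of the 7 tested exporters 1 rose and 1 fell. Slc30a2, Slc30a8, Slc30a10 and Slc39a12 had 0 counts in every library.

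**Figure D3:**
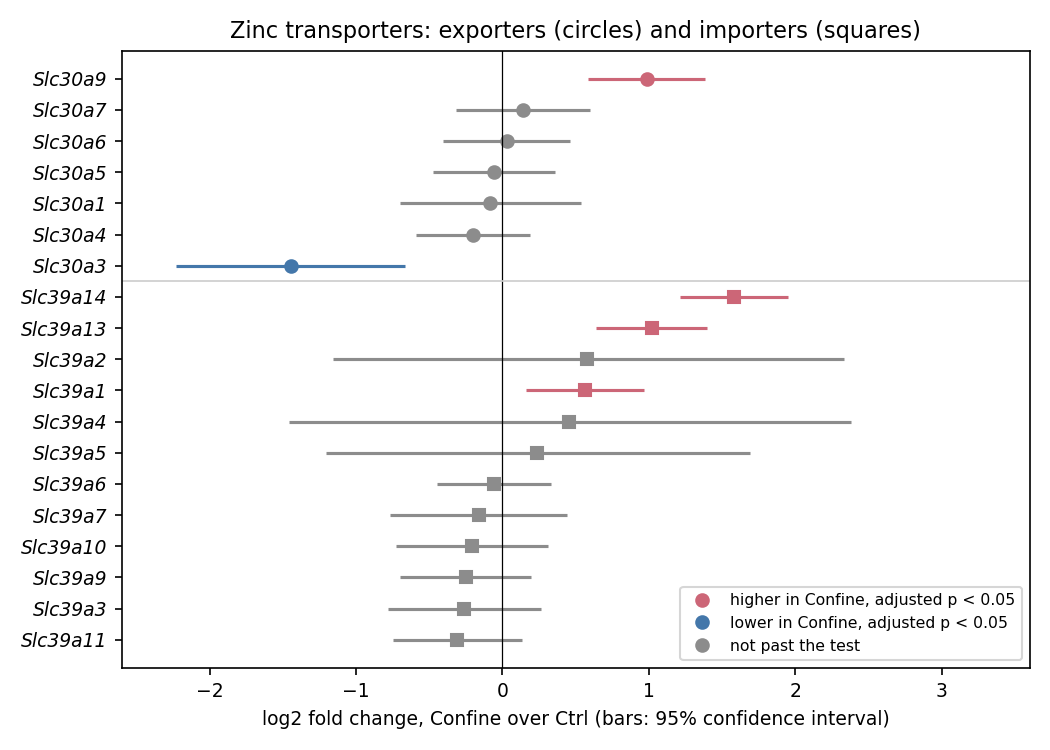
Log2 fold change of the 19 tested zinc transporter genes with 95% intervals, exporters as circles above the line and importers as squares below it. Slc39a14 at 1.58, Slc39a13 at 1.02, Slc30a9 at 0.98 and Slc39a1 at 0.56 were higher in Confine and Slc30a3 at -1.44 was lower, while the intervals of the other 14 genes cross 0.

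Among importers, Slc39a13, which encodes a zinc transporter of the early secretory pathway needed in connective tissue, had 4461, 3149 and 3343 counts in Ctrl and 8564 and 6832 in Confine. Its log2 fold change was 1.02 (SE 0.18, edgeR adjusted p = 3.42e-04), from a mean of 138 CPM to 280 CPM. The groups did not overlap. Of its exonic bases, 4.42% are shared with the opposite-strand gene Psmc3. Slc39a1, which encodes a widely expressed plasma membrane importer, had the highest level of the family, with 29198, 37814 and 24214 counts in Ctrl and 48035 and 45119 in Confine. It rose by 0.56 on the log2 scale (SE 0.19, edgeR adjusted p = 0.0411), a call lost without Ctrl replicate 1 (adjusted p = 0.167), Ctrl replicate 3 (0.171), Confine replicate 2 (0.0753) or Confine replicate 3 (0.198), and with library size alone (0.199).

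Among the Slc30 genes, Slc30a9 is listed as an exporter by family only, since it encodes a transporter that takes zinc out of mitochondria. It had 592, 650 and 439 counts in Ctrl and 1142 and 1145 in Confine. Its log2 fold change was 0.98 (SE 0.19, edgeR adjusted p = 7.88e-04), from 21.2 CPM to 42.0 CPM, with no overlap between groups. Slc30a3, known for loading zinc into synaptic vesicles, fell from 116, 75 and 58 counts in Ctrl to 28 and 34 in Confine, with a log2 fold change of -1.44 (SE 0.37, edgeR adjusted p = 0.00802). All Confine libraries were below all Ctrl libraries, but the call was lost without Ctrl replicate 1 (adjusted p = 0.0505) or Confine replicate 2 (0.104). It was past the fold cutoff as well with library size alone (-1.65), with the identical columns as 2 samples (-1.54) and without Ctrl replicate 2 (-1.51), Ctrl replicate 3 (-1.60) or Confine replicate 3 (-1.71). Of the genes that did not pass, those with the most counts, not set per length, were the importer Slc39a6 (log2 fold change -0.057, 95% interval -0.45 to 0.33) and the vesicular exporter Slc30a4 (-0.20, 95% interval -0.59 to 0.19).

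Of 10 listed genes made up of Mtf1 and genes that MTF1 is known to induce or, for Slc39a10, to repress, 4 rose, 0 fell and 6 did not pass, a share of 40% against 23% of all tested genes, with a median log2 fold change of 0.21. Mt1 and Mt2 are among the 4, so the share of 40% rests in part on genes already reported above. The others were Pgf and Ndrg1, and Gclc (0.12), Csrp1 (0.31) and Selenoh (-0.50) lay with Mtf1, Slc30a1 and Slc39a10 among those that did not pass. Pgf, which encodes placental growth factor, had 32, 38 and 34 counts in Ctrl and 2026 and 2126 in Confine. Its log2 fold change was 5.85 (SE 0.23, edgeR adjusted p = 6.31e-12), from 1.33 CPM to 76.4 CPM. Ndrg1, a gene known to be induced by low oxygen and by metal ions, had 889, 1061 and 875 counts in Ctrl and 16886 and 19299 in Confine. It rose by 4.21 on the log2 scale (SE 0.20, edgeR adjusted p = 7.82e-11). The groups were wide apart for both genes.

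Metallothioneins also bind copper, and 2 of 9 tested copper handling genes rose while 7 did not pass, a share of 22.2% against 23% of all tested genes, with a median log2 fold change of 0.12. Both encode copper-exporting ATPases. Atp7b, best known from liver, had 36, 22 and 49 counts in Ctrl and 2370 and 1700 in Confine, a log2 fold change of 5.75 (SE 0.28, edgeR adjusted p = 7.74e-11) from 1.39 CPM to 73.8 CPM. Atp7a, the form of most other tissues, had 208, 227 and 165 counts in Ctrl and 461 and 487 in Confine, a log2 fold change of 1.20 (SE 0.21, edgeR adjusted p = 3.76e-04). The Confine libraries were above the Ctrl libraries for both. The importer gene Slc31a1 (0.13) and the chaperone genes Atox1 (0.39) and Ccs (0.11) did not pass.

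Genes of other signals known to induce metallothioneins were also listed. Of 7 tested genes listed for the glucocorticoid response, the receptor gene itself among them, 3 rose, 1 fell and 3 did not pass. This was a share of 57.1% against 23% of all tested genes, with a median log2 fold change of 0.21. The clock gene Per1 rose by 1.21, the phosphatase gene Dusp1 by 0.99 and the transcription factor gene Klf9 by 0.74 on the log2 scale, while Fkbp5, a cochaperone of the glucocorticoid receptor, fell by 0.89 on that scale. The receptor gene Nr3c1 (0.21) and the response genes Tsc22d3 (-0.054) and Sgk1 (-0.41) did not pass. The call of Klf9 was lost without Ctrl replicate 1 (edgeR adjusted p = 0.0538), Confine replicate 2 (0.0881) or Confine replicate 3 (0.0805), and with library size alone (0.057), and that of Fkbp5 without Confine replicate 2 (0.186).

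Of 8 tested genes of the IL-6 and STAT3 response, 4 rose, 0 fell and 4 did not pass, a share of 50% against 23% of all tested genes, with a median log2 fold change of 0.83. The cytokine gene Lif had 70, 71 and 41 counts in Ctrl and 585 and 534 in Confine, and rose by 3.16 on the log2 scale (SE 0.24, edgeR adjusted p = 2.53e-08). The feedback inhibitor gene Socs3 rose by 1.24, the transcription factor gene Cebpd by 1.07 and the oncostatin M receptor gene Osmr by 0.99. Il6, Il6st and Bcl3 did not pass, nor did Stat3 itself (0.57, edgeR adjusted p = 0.0681).

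**Figure D4:**
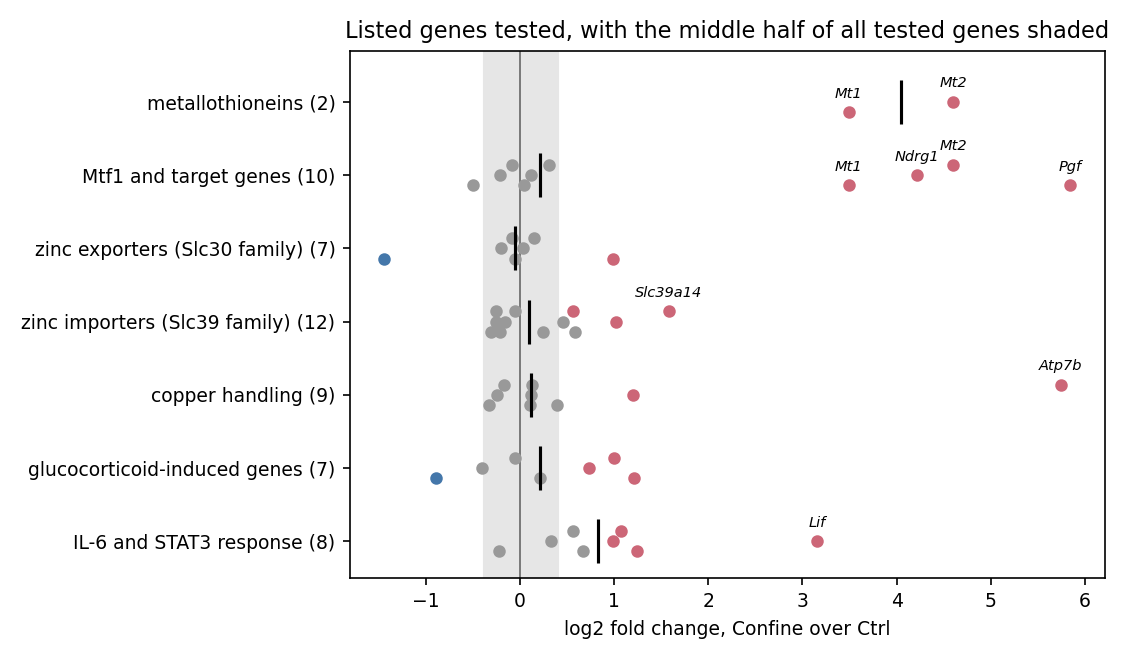
Log2 fold change of every tested gene of 7 lists (red higher and blue lower in Confine at an adjusted p under 0.05, grey not past the test), with the list median as a black bar, the number tested in brackets, and the range from the lower to the upper quartile of all tested genes shaded (-0.38 to 0.40). Mt1 and Mt2 are far to the right of the zinc transporter lists, whose medians are near 0, and Pgf, Atp7b, Ndrg1 and Lif are the other genes beyond 3.

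The genes whose pattern over the 5 libraries was most like that of Mt1 and of Mt2 were found by Euclidean distance between centred log2 CPM values, among 11794 tested genes with a mean of at least 50 counts. Likest Mt1 were Itga7 (distance 0.297), Higd1a (0.317), Sema4g (0.398), Hilpda (0.459) and Errfi1 (0.466). Itga7 encodes an integrin subunit that binds laminin, and Higd1a and Hilpda are known as genes induced by low oxygen. Likest Mt2 were Il13ra2 (0.092), Col5a3 (0.489), Ccl5 (0.502), Ndrg1 (0.563) and Ache (0.617). Il13ra2 encodes a decoy receptor for interleukin 13. With 5 libraries in 2 groups, genes with a similar log2 fold change are near each other by this measure.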

How the data were processed

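The authors purified polyadenylated RNA from MEFs, made dUTP libraries and deposited raw counts per gene, without normalization. The submitters' processing notes list Trim Galore 0.6.10, HISAT2 2.1.0, SAMtools 1.5, featureCounts and the mm10 build. The annotation and the strand setting of counting are not given in the sources used here. Gene names, positions and exon lengths came from GENCODE M21 (GRCm38), which matched 54587 of the 55335 identifiers with their version and 55154 without it.

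After filterByExpr, 15881 genes were scaled by TMM and fitted in edgeR 4.0.16 (R 4.3.3) with glmQLFit and glmQLFTest, and p-values were adjusted by the Benjamini-Hochberg method. The test had been planned for 3 against 3 libraries and was run on 3 against 2, because 2 Confine columns were identical. Residual degrees of freedom were 3 and the prior ones 14.8 at the median. The SE is the absolute log2 coefficient divided by the square root of F. CPM is counts relative to the TMM-scaled library total. In these libraries 3 counts equal 0.101 to 0.128 CPM, a floor that covers only counting error because PCR copies could not be told from molecules. The fold cutoff of 1.5 is that of the study's figure legend.

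The genes and lists were chosen with earlier results of these data known. The genes named were the 7 genes and Mt4, every listed gene that passed, the 2 zinc transporter genes with the most counts that did not, the 5 likest genes of Mt1 and of Mt2 (prior count 2) and the neighbours of the cluster. Gm45774 and other listed genes that did not pass were named after their values were seen. Counts were simulated for this comparison over 15881 genes with 200 changed. From them edgeR recovered 84% of genes changed by a log2 fold change of 2 and 86% of those changed by 3. Of its calls 8.60% were false, above the nominal share of 0.05. In the data 23% of tested genes passed, a far larger part than was changed in the simulation, so these shares need not hold there. The alternatives were other normalizations and filters, DESeq2 1.42.0, limma-voom (limma 3.58.1), glmTreat, a replicate block, the identical columns counted as 2 samples, and leaving out each library.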

Additional observations from a re-analysis of the deposited data

How the results depend on the processing

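Mt1, Mt2 and Slc39a14 kept an adjusted p under 0.05 in all 14 alternatives, with log2 fold changes of 3.28 to 3.71, 4.39 to 4.78 and 1.37 to 1.62. The number of the 7 genes past both cutoffs was 2 with library size alone and with the cutoff made part of the test, and 3 otherwise. The log2 fold change of Mtf1 was -0.17 with library size alone and -0.0026 with the identical columns counted as 2 samples, where that of Slc30a1 was 0.018. The cause was not tested. With each library left out in turn, that of Mtf1 ran from -0.047 to 0.13 (-0.045 without Ctrl replicate 3), that of Slc30a1 from -0.49 to 0.23 (0.11 without Ctrl replicate 2) and that of Slc39a10 from -0.59 to 0.097. The zinc transporter genes past the test then numbered 3 to 6, with 3 without Ctrl replicate 1 or Confine replicate 2. Without a Confine library, the other is assumed to vary like Ctrl.

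Over all tested genes, leaving out each library gave 2054 to 4426 genes with an adjusted p under 0.05 (1196 to 2411 higher and 850 to 2015 lower in Confine), the fewest without Confine replicate 3. With library size alone, lower genes outnumbered higher ones, 2805 against 1444 (1619 against 2035 with TMM), and also past both cutoffs, 678 against 622. With the identical columns as 2 samples, 2456 genes were lower. Past both cutoffs there were 812 genes, 479 of them higher, with at least 10 counts required in every library, fewer genes being tested, and 357 (289 higher and 68 lower) with the cutoff made part of the test, against 1271 (777 higher and 494 lower).

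Replicate numbers are shared between the groups. Deviations of same-numbered libraries had a correlation across genes of -0.058 with the repeated column as number 2 and 0.057 as number 1. Each value rests on a single pair of libraries per group, so it cannot settle whether same-numbered samples shared a culture or batch. With the replicate block, 3 zinc transporter genes passed with the repeated column as number 2, and the log2 fold change of Slc30a1 was 0.085 with it as number 1. That fit has 1 residual degree of freedom. The 3 of the 7 genes that rose passed with the block under either number.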
